A study of Mus musculus with 13 samples.

Results

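In mouse embryonic stem cells, 602 of 6485 expressed genes (9.28%, 95% Wilson interval 8.60 to 10.0%) had no open-chromatin peak at their promoter in any of 5 low-input ATAC-seq peak lists. A gene counted as expressed when it averaged at least 10 CPM (a gene's count divided by the library total, scaled so that each library sums to the same value) over 5 mRNA libraries. Its promoter was a window of 1000 bp on either side of the transcription start site (TSS), taken as the 5′ end of the gene in the count table of 24470 genes. The mRNA levels and the low-input peaks therefore chose these genes, here called peakless genes, and both are given as descriptions. Differences in mRNA between libraries were tested gene by gene over the whole count table. The other expressed genes had a promoter peak in 1 to 4 lists (2677 genes) or in all 5 lists (3206 genes), and 9798 genes under 1 CPM had no low-input promoter peak.

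All libraries came from the E14 line, embryonic stem cells of 129/Ola background grown with fetal bovine serum and leukemia inhibitory factor (LIF), and the labels name no genetic change or treatment in any group. The low-input protocol took ATAC DNA and polyadenylated RNA from the same cells. Experiment 1 used 10000 and 20000 cells, and experiment 2 used 5000, 10000 and 20000 cells. Omni-ATAC-seq, an established ATAC protocol that the authors ran as a benchmark, gave 1 library each from 5000, 10000 and 50000 cells, and its lists took no part in choosing the peakless genes. Total counts of the mRNA libraries ran from 13727122 to 20426252, the low-input lists held 18637 to 49508 peaks, and the Omni-ATAC lists held 9097, 31207 and 95457 peaks. The read depth behind the lists is unknown, the lists carry no peak height, and the shortest peaks are 9 bp wide. Of 20 pluripotency genes, 18 were expressed, with a summed level of 4544 to 4827 CPM per library, against 10.0 to 37.3 CPM for 10 fibroblast genes and 1.02 to 3.87 CPM for 5 mesendoderm genes.

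ATAC-seq uses the transposase Tn5 to cut DNA that is not wrapped tightly in nucleosomes, and the promoters of transcribed genes are usually among the most open sites of a genome. Promoters of widely expressed genes mostly lie in CpG islands, stretches rich in the dinucleotide CpG, whereas many tissue-restricted promoters are poor in CpG and some carry a TATA box. Genes can also have several start sites, so that the promoter in use in a cell type may lie far from the 5′ end of the annotated gene.

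The sequences of 6 peakless genes show the kinds of promoter found among them. Each is the 250 bases before the start, from RefSeq on GRCm38.p6, written 5′ to 3′ along the gene, with every CpG in capitals. Dnmt1, the maintenance DNA methyltransferase, and Fth1, the heavy chain of the iron store ferritin, are shown at the start that the count table gives and at a second RefSeq start where all 5 low-input lists had a peak.
Dnmt1, start in the count table, chr9:20959889-20960138, minus strand: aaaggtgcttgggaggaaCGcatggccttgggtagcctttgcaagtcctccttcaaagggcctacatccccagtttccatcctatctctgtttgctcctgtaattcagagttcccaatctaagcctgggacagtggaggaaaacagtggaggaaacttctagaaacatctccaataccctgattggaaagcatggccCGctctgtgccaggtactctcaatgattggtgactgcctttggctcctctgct
Dnmt1, other RefSeq start, chr9:20952980-20953229, minus strand: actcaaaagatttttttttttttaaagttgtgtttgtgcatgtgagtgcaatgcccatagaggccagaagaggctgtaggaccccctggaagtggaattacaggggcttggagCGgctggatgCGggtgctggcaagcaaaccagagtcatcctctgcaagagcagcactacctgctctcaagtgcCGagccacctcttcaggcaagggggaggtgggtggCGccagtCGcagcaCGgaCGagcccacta
Fth1, start in the count table, chr19:9980350-9980599, plus strand: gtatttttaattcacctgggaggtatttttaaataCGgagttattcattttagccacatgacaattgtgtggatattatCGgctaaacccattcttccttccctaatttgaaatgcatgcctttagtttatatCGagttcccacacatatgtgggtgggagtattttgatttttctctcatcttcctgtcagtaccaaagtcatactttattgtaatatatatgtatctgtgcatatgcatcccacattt
Fth1, other RefSeq start, chr19:9982396-9982645, plus strand: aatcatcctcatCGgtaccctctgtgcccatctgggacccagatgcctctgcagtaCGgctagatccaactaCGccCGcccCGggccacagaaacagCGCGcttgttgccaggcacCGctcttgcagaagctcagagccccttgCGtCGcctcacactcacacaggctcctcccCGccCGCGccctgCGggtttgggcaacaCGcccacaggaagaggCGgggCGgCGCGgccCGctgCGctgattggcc
Ctnnb1, which encodes beta-catenin, had a promoter peak in the Omni-ATAC list from 50000 cells and in none of the low-input lists. Rpl18, a protein of the large ribosomal subunit, had no promoter peak in any of the 8 lists.
Ctnnb1, start in the count table, chr9:120933150-120933399, plus strand: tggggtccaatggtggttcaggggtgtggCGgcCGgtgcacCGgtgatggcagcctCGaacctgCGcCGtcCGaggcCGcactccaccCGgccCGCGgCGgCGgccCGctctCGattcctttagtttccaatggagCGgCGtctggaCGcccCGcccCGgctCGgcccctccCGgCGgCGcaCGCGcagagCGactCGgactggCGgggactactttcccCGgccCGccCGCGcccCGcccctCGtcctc
Rpl18, start in the count table, chr7:45717821-45718070, plus strand: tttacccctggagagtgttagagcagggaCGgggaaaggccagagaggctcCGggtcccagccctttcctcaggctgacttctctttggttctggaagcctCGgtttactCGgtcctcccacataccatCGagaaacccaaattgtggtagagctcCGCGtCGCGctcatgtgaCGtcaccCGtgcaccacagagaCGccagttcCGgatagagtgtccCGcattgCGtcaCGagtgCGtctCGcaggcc
Tsx and Rhox5, genes of the X chromosome known from testis and, for Rhox5, as a homeobox gene, had no promoter peak in any list, and their mRNA differed between the experiments.
Tsx, start in the count table, chrX:103414217-103414466, plus strand: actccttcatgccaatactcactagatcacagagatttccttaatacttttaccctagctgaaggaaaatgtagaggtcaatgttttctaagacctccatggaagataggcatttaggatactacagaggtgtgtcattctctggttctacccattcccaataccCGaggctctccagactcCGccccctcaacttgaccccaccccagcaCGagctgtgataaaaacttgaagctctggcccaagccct
Rhox5, start in the count table, chrX:37754358-37754607, plus strand: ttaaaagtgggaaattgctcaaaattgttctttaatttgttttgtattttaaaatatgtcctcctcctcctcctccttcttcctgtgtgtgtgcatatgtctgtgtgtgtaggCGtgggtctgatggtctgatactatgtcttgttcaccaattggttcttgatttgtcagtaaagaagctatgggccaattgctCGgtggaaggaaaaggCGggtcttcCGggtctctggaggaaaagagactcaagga
The printed stretches hold 2 and 7 CpG for the pair from Dnmt1, 3 and 21 for the pair from Fth1, 35 for Ctnnb1, 18 for Rpl18, 3 for Tsx and 4 for Rhox5. In both pairs the other start had more CpG than the start in the count table.

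Peakless genes were weakly expressed more often than strongly expressed. The highest was the mitochondrial ND1 at 7759 CPM, and the highest nuclear level was 5616 CPM. Genes with a peak in 1 to 4 lists reached 12950 CPM, and those with a peak in all 5 reached 12350 CPM. The mean level of peakless genes had a median of 26.3 CPM, with quartiles of 15.1 and 58.6 CPM. The median was 34.3 CPM for genes with a peak in 1 to 4 lists and 38.4 CPM for genes with a peak in all 5. Of expressed genes between 10 and 20 CPM, 12.8% were peakless, and of those at 500 CPM and over, 7.58% were. The latter include genes of the mitochondrial genome, among them ND1 and CYTB. Peakless genes together took 7.60 to 8.49% of the counts of a library. The coefficient of variation over the 5 libraries had a median of 16.9%, against 15.0% for all expressed genes, and 477 of the 602 had at least 10 CPM in every library.

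The limits of the definition can be seen in the genes beside them. Arxes1 (10.0 CPM) and Borcs5 (10.1 CPM) were the lowest peakless genes, and Rhod (9.996 CPM) and Vps54 (9.96 CPM) lay just under the minimum. Sart3 and D7Ertd143e were 1001 bp from their nearest low-input peak, just outside the window. Maged2 and Rasgrp2 had their nearest peak at 985 bp and were not peakless. The experiment 2 library from 20000 cells gave the longest low-input list. Without that library, meaning both its peak list and its mRNA column in the mean CPM, 983 genes were peakless, and 589 of the 602 were among them. Counting only peaks of at least 50 bp gave 1470 peakless genes, and the deposited unified list gave 2209.

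By gene class, the genes encoded in mitochondrial DNA and the small RNA genes were peakless throughout, while shares in the housekeeping groups ran from 0 to 13.0%, around that of all expressed genes. All 12 expressed mitochondrial genes, which encode subunits of the respiratory chain and of ATP synthase, were peakless, and none of the 8 lists held any peak on chromosome M. ND1, a subunit of complex I, had 9399 and 8632 CPM in the experiment 1 libraries from 10000 and 20000 cells and 6242, 7288 and 7231 CPM in the experiment 2 libraries from 5000, 10000 and 20000 cells. These were the highest levels of any peakless gene, and both experiment 1 libraries lay above all experiment 2 libraries. CYTB, the cytochrome b of complex III, averaged 4703 ± 518 CPM (SD, n = 5). ND2, another complex I subunit, averaged 2477 ± 418 CPM (SD, n = 5). The other mitochondrial genes ran from 13.1 CPM for ND3 to 1454 CPM for ND4. Whether mitochondrial peaks were removed before deposit is not given in the sources used here.

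The 4 expressed small RNA genes were Mir692-2, Mir682, Mir703 and the small nucleolar RNA gene Snora65, out of 1329 small RNA genes in the table. The RNA libraries were made from polyadenylated RNA, so the counts give reads over these loci and not mature microRNA. The mature sequences, from RefSeq, are shown with the seed (bases 2 to 8) in capitals, and no pair shares a seed.
miR-692 (Mir692-2): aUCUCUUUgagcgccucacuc
miR-703 (Mir703): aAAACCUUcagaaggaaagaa
miR-682 (Mir682): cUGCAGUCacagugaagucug
Mir692-2 (chromosome 4, 125504749 to 125504857, inside Grik3) had 843 and 742 CPM in experiment 1 and 814, 630.4 and 872 CPM in experiment 2. Its libraries overlapped between the experiments, and its nearest low-input peak lay 1634 bp upstream of the start. Mir682 (chromosome 13, 75645046 to 75645141) averaged 60.1 ± 4.68 CPM and Mir703 (chromosome 5, 98475556 to 98475664, inside Cfap299) 57.5 ± 16.5 CPM (SD, n = 5). Their nearest low-input peaks lay 40380 and 36736 bp away. How reads that match several places were counted is not given in the sources used here, so the levels of genes with near-identical copies are uncertain.

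Transcribed pseudogenes were peakless in 19 of 23 cases (82.6%, 95% interval 62.9 to 93.0%), against 573 of 6392 protein-coding genes (8.96%, 8.29 to 9.69%). Rps4l, a ribosomal protein S4 copy inside Tmtc1, averaged 519.9 ± 26.0 CPM and had a 428 bp promoter peak in the Omni-ATAC list from 50000 cells. Ndufs5-ps (129 ± 14.6 CPM, inside Zbtb20) and Rpl14-ps1 (121 CPM, inside Trpm4) had none in any list. Of the 29 peakless genes that do not encode protein, 15 lay inside another gene, and how reads shared with a parent copy or a host gene were assigned is not known.

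Ribosomal protein genes were peakless in 8 of 90 cases (8.89%, 4.57 to 16.6%). Of these, Rpl8, Rps15, Rpl18 and Rpl37a are ordinary subunits, and Rpl37rt, Rps27rt, Rpl39l and Rpl32l carry the names of retrotransposed or related copies. Rpl8 (chromosome 15) had 5743 and 6042 CPM in experiment 1 and 5364, 5355 and 5575 CPM in experiment 2. Rps15 averaged 3088 ± 156 CPM and Rpl37a 2093 ± 150 CPM. In the Omni-ATAC list from 50000 cells, Rps15 and Rpl37a had promoter peaks of 219 and 160 bp, and Rpl8 had one of 37 bp.

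The other housekeeping lists were formed by gene symbol, and the interval of each included the share of all expressed genes. There were 9 of 104 respiratory chain genes (8.65%, 4.62 to 15.6%), 6 of 46 proteasome genes (13.0%, 6.12 to 25.7%), 3 of 59 translation factor genes (5.08%, 1.74 to 13.9%), 2 of 47 splicing genes (4.26%, 1.17 to 14.2%) and 1 of 49 chaperone genes (2.04%, 0.361 to 10.7%). The respiratory chain members included Cox6c, Cox4i1, Cox7b and Cox6b1, all nuclear subunits of cytochrome c oxidase. Cox6c averaged 3156 ± 620.4 CPM, Cox4i1 2519 ± 434 CPM, Cox7b 2320 ± 217 CPM and Cox6b1 853 CPM. All but Cox7b had a promoter peak in the Omni-ATAC list from 50000 cells. The chaperone gene was Dnajc8, the splicing genes were Hnrnpf and Srsf9, and the proteasome genes were Psma6, Psmb7, Psmc1, Psmb10, Psme1 and Psmg3. Histone genes contributed 0 of 9.

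Zinc finger genes were peakless in 16 of 102 cases (15.7%, 9.89 to 24.0%) and predicted or unnamed genes in 21 of 143 (14.7%, 9.81 to 21.4%). The zinc finger genes included Zfp57, which is known for keeping imprints, at 167 ± 9.49 CPM, Zfp296 at 122 ± 15.0 CPM and Zfp979 at 41.6 ± 10.7 CPM (SD, n = 5). Zfp57 had a low-input peak in 1 list at another RefSeq start, Zfp296 had an 18 bp promoter peak in the Omni-ATAC list from 50000 cells, and Zfp979 had neither. The most abundant predicted genes were 1700097N02Rik at 142 CPM, 2010204K13Rik at 85.8 CPM and Gm12338 at 82.9 CPM. Solute carriers, the membrane transporters, were peakless in 10 of 90 cases (11.1%, 6.15 to 19.3%).

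**Figure D1:**
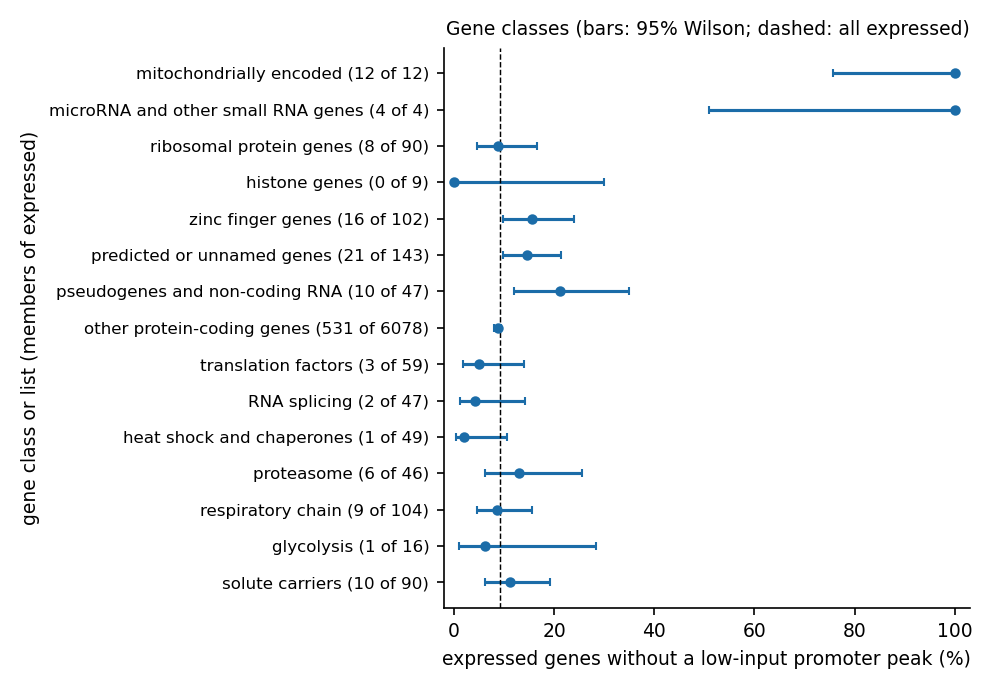
Share of expressed genes (%, horizontal axis) without a low-input promoter peak in each gene class or list, with 95% Wilson intervals as bars and the share of all expressed genes (9.28%) as a dashed line. The mitochondrial (12 of 12) and small RNA (4 of 4) classes stand at 100%, and the intervals of most other groups include the dashed line.

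The plot of gene classes shows that the intervals of zinc finger genes, predicted genes, and pseudogenes and non-coding RNAs lie above the share of all expressed genes, and that other protein-coding genes, at 531 of 6078 (8.74%), lie near it. Intervals here cover counting error over genes only. The chromosomes differed too: 33 of 172 expressed genes on chromosome X (19.2%) and 31 of 185 on chromosome 14 (16.8%) were peakless, against 32 of 515 on chromosome 2 (6.21%). On chromosome X, 19 of the 33 had no low-input peak in the gene or within 10000 bp, and 25 of the 33 had a promoter peak in the Omni-ATAC list from 50000 cells.

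Pluripotency genes were peakless in 3 of 18 cases, and each had a different surrounding. Esrrb, a nuclear receptor of the naive stem cell network, had 74.5 and 82.2 CPM in experiment 1 and 76.7, 82.2 and 85.4 CPM in experiment 2. It had no promoter peak in any list, while all 5 low-input lists had a peak elsewhere in the gene, the nearest 41837 bp downstream of the start. Fgf4, the growth factor that drives exit from naive pluripotency, averaged 146 ± 12.5 CPM and had a 121 bp promoter peak with Omni-ATAC from 50000 cells and, in 4 low-input lists, a peak elsewhere in the gene, the nearest 3038 bp downstream of the start. Dppa4, a chromatin-associated pluripotency protein, averaged 177 ± 13.2 CPM and had promoter peaks in both the 10000 and the 50000 cell Omni-ATAC lists. Outside this list, Foxd3 (34.0 CPM) and Lefty1 (45.6 CPM), chosen after their values were seen, had no promoter peak in any of the 8 lists.

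Many peakless genes had low-input peaks elsewhere in the gene. A peak in the gene but outside the window was present in at least 1 list for 348 of 602 genes (57.8%, 53.8 to 61.7%) and in all 5 lists for 153 (25.4%, 22.1 to 29.0%). With the definition changed to peaks of at least 50 bp, to a window of 2500 bp or to the libraries without that from 20000 cells in experiment 2 (peak list and mRNA column), the first share was 35.4%, 48.1% and 45.0%. For expressed genes with a promoter peak in 1 to 4 lists these counts were 1137 and 320 of 2677. The shares were 39.3% and 9.58% for genes with a promoter peak in all 5 lists, and 17.9% and 3.43% for genes under 1 CPM. Taken singly, the experiment 1 lists had such a peak for 33.1% (10000 cells) and 39.4% (20000 cells) of peakless genes. The experiment 2 lists had one for 33.6%, 44.0% and 55.5% at 5000, 10000 and 20000 cells. Median gene lengths were close, at 18203 bp for peakless genes and 19183 bp for genes with a peak in all 5 lists. For the 590 nuclear peakless genes the nearest low-input peak lay at a median of 4807 bp from the start, with quartiles of 2037 and 11485 bp. It was within 2500 bp for 174 genes (29.5%) and within 10000 bp for 425 (72.0%).

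The 602 genes were sorted by where the nearest low-input signal lay, taking the first that applied. There were 12 genes on the mitochondrial genome, 104 with a low-input peak within 1000 bp of another RefSeq start of the same gene, 259 with a peak elsewhere in the gene, 132 with a peak within 10000 bp but outside the gene, and 95 with none of these. Promoter peaks in the Omni-ATAC list from 50000 cells were found for 0, 25 (24.0%, 16.8 to 33.1%), 162 (62.5%, 56.5 to 68.2%), 89 (67.4%, 59.0 to 74.8%) and 65 (68.4%, 58.5 to 76.9%) of them. Genes with a peak at another start thus had the lowest share among the nuclear groups, with an interval below those of the other 3.

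**Figure D2:**
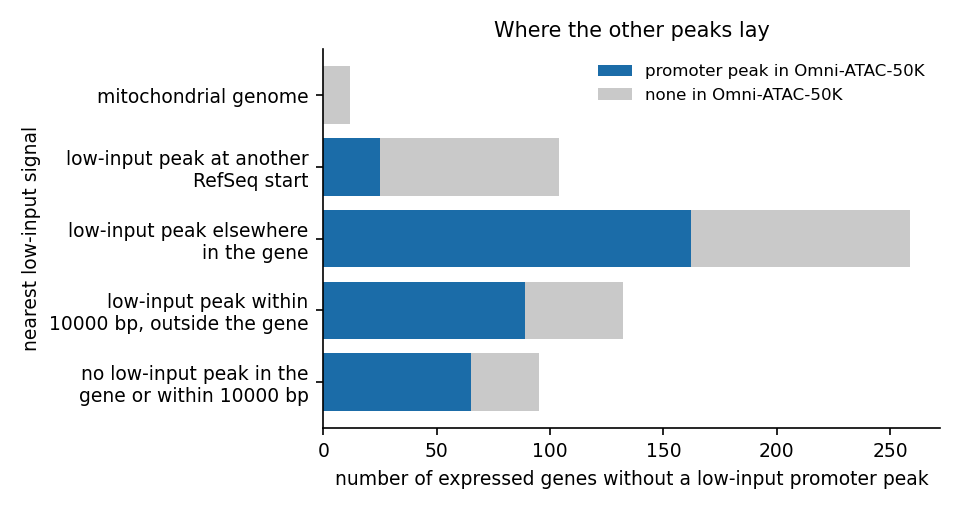
Number of peakless genes (horizontal axis) by the position of the nearest low-input signal (vertical axis), split by whether the Omni-ATAC list from 50000 cells had a promoter peak (blue) or not (grey). The group with a low-input peak at another RefSeq start had 25 of 104 genes in blue, and the group with no low-input peak in the gene or within 10000 bp had 65 of 95.

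The bars by nearest signal separate genes with an open start elsewhere from the rest. Of the 452 peakless genes in the RefSeq promoter table, 126 (27.9%, 23.9 to 32.2%) had another start more than 2000 bp from the TSS of the count table. The share was 163 of 2697 (6.04%, 5.21 to 7.01%) for genes with a promoter peak in all 5 lists. A low-input peak lay at such a start for 104 of the 126 (82.5%), in all 5 lists for 48 of them. Among genes with a promoter peak in all 5 lists it did so for 80 of 163 (49.1%, 41.5 to 56.7%). The distance from the TSS of the count table to that start had a median of 7694 bp and ranged from 2046 to 2099425 bp.

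Fth1 (chromosome 19, 9980600 to 9985111) had 5635 and 4802 CPM in experiment 1 and 4405, 3659 and 3804 CPM in experiment 2. The experiment 1 libraries were higher than all of experiment 2. Its table start had no peak in any list, and the start 2046 bp further on, at 9982646, had a peak in all 5 low-input lists. Dnmt1 (chromosome 9, 20907206 to 20959888) had 188 and 183 CPM in experiment 1 and 138, 156 and 183 CPM in experiment 2, with overlapping groups. Its other start, 6909 bp away at 20952979, had a peak in all 5 lists, and the table start had none in any.

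The same pattern was found for Dpy30, a core subunit of histone H3 lysine 4 methyltransferase complexes, at 722 ± 29.9 CPM, whose other start lay 7511 bp away. Psma6, an alpha subunit of the proteasome core, averaged 435 ± 22.5 CPM with a shift of 14603 bp, Adh5, an alcohol dehydrogenase that oxidises formaldehyde adducts, 414 ± 45.9 CPM with a shift of 5893 bp, and Tpm3, a tropomyosin, 177 ± 18.2 CPM with a shift of 6870 bp. All of these had the peak at the other start in all 5 low-input lists. Dnmt3l, the cofactor of de novo DNA methylation, had it in 2 lists at 278 ± 50.2 CPM. Gpx4, which reduces lipid peroxides, at 403 CPM, had a peak at the other start in all 5 lists and also a 650.0 bp Omni-ATAC peak in the window of the table start, 902 bp from it.

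The letters at the paired starts differed in the same direction. For 81 such genes with a RefSeq promoter (250 bases before to 50 after the start) at both sites, the ratio of observed to expected CpG had a median of 0.31 at the table start and 0.73 at the other start. It was higher at the other start in 64 genes and lower in 17. The GC content had medians of 52.0% and 63.3%. For Dpy30 the ratio was 0.08 against 0.91, and for Dnmt1 0.10 against 0.50. Zfp57 went the other way, at 0.38 and 0.29.

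Across all peakless genes the CpG content of the promoter split with the Omni-ATAC result, which the definition had not used. Of the 602 genes, 422 had a RefSeq promoter within 1000 bp of the table TSS. Their CpG ratio had a median of 0.62, with quartiles of 0.31 and 0.86. The median was 0.77 (SD 0.27, n = 257) with a promoter peak in the Omni-ATAC list from 50000 cells and 0.31 (SD 0.28, n = 165) without one. With genes that had a low-input peak at another start left out, the median without one was 0.35 (n = 107). It was 0.82 for expressed genes with a promoter peak in 1 to 4 low-input lists, 0.83 for those with one in all 5, 0.19 for genes under 1 CPM without one, and 0.38 over all 32851 promoters of the table. Peakless genes with an Omni-ATAC peak thus lay near other expressed genes, and those without one lay nearer to silent genes, with wide spreads in both. These are medians over genes and carry no test.

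**Figure D3:**
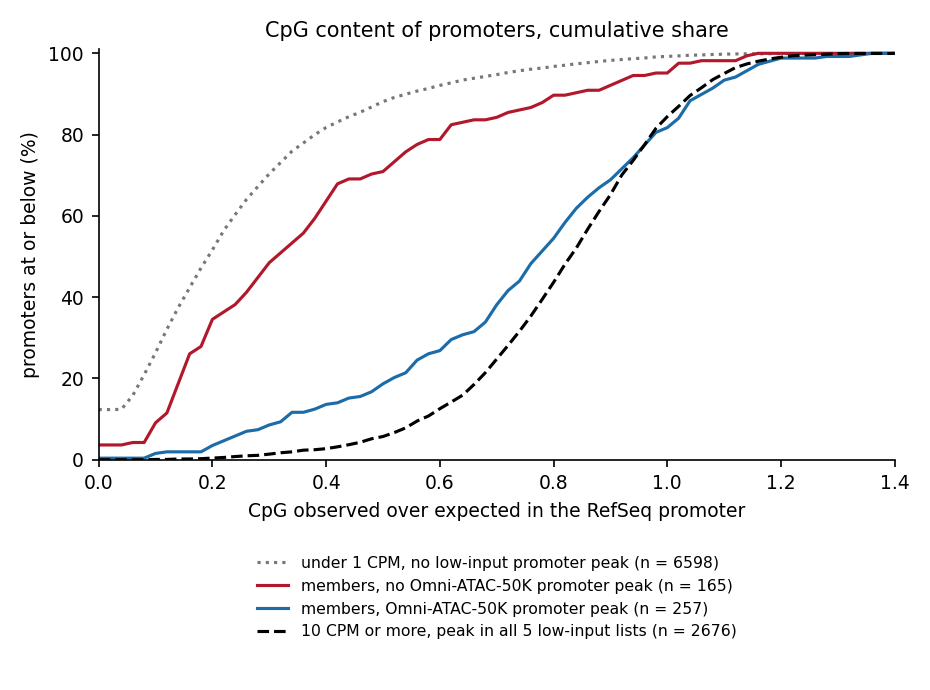
Cumulative share of promoters (%, vertical axis) at or below a given ratio of observed to expected CpG (horizontal axis) for peakless genes (members) with and without a promoter peak in the Omni-ATAC list from 50000 cells, for expressed genes with a peak in all 5 low-input lists and for genes under 1 CPM. At a ratio of 0.6 the curves stand at 26.8% for the 257 members with an Omni-ATAC peak, 78.8% for the 165 without one, 12.6% for the 2676 genes with a peak in all 5 lists and 92.1% for the 6598 silent genes.

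The cumulative curves show that members without an Omni-ATAC peak lay between silent genes and members with one over most of the range. The letters TATAAA, searched on the strand of the gene only, were found in 30 of 422 promoters of peakless genes (7.11%, 5.02 to 9.97%). The share was 2.95% of promoters with a peak in all 5 lists, 16.0% for genes under 1 CPM and 8.32% of all promoters of the table. Among peakless genes with no low-input peak in the gene or within 10000 bp it was 9 of 60 (15.0%, 8.10 to 26.1%). It was 9 of 90 (10.0%) with a peak within 10000 bp, 9 of 191 (4.71%) with a peak elsewhere in the gene and 3 of 81 (3.70%) with a peak at another start. A match describes letters and is not evidence of a working TATA box.

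Peakless genes seldom shared their promoter with a divergent neighbour. A gene on the opposite strand started within 1000 bp upstream for 38 of 602 (6.31%, 4.63 to 8.55%), against 14.2% of genes with a promoter peak in 1 to 4 lists and 21.8% (20.4 to 23.3%) of those with one in all 5. Among the 590 nuclear peakless genes, 36 (6.10%) had such a neighbour. In 11 pairs both genes were peakless, including CYTB and ND6 of the mitochondrial genome, on which no list held a peak. Atpif1, the inhibitor of mitochondrial ATP synthase, at 1466 CPM, and Dnajc8 at 355 CPM start 145 bp apart and share a 102 bp Omni-ATAC peak. Cox4i1 and Emc8, a subunit of an endoplasmic reticulum membrane complex, start 113 bp apart and share a 166 bp peak in the list from 50000 cells. Rpl18 and Sphk2, a sphingosine kinase, start 69 bp apart and had no promoter peak in any list, though all 5 low-input lists had one at another start of Sphk2.

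The Omni-ATAC list from 50000 cells recovered a promoter peak for 341 of the 602 peakless genes (56.6%, 52.7 to 60.5%), or 57.8% (53.8 to 61.7%) of the 590 nuclear ones. The list from 10000 cells did so for 66 (11.0%) and the list from 5000 cells for 4, namely Nudt4, Kcmf1, Junb and Zbtb7a, whose nearest low-input peaks lay 1428, 1297, 1016 and 1072 bp away. Expressed genes with a promoter peak in a single low-input list had one in the 50000 cell list in 458 of 469 cases (97.7%, 95.8 to 98.7%), and genes under 1 CPM without a low-input peak in 1341 of 9798 (13.7%, 13.0 to 14.4%). Windows displaced by 100000 bp from the nuclear peakless genes held a peak in 79 of 590 cases (13.4%, 10.9 to 16.4%). The recovery was thus above the level of silent genes and of displaced windows, and below that of genes with a low-input promoter peak. There is 1 library at 50000 cells, so protocol, cell number and list length cannot be told apart, and the list is the longest of the 8. The Omni-ATAC libraries carry no experiment number, so a difference in culture or batch cannot be told apart from these either.

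**Figure D4:**
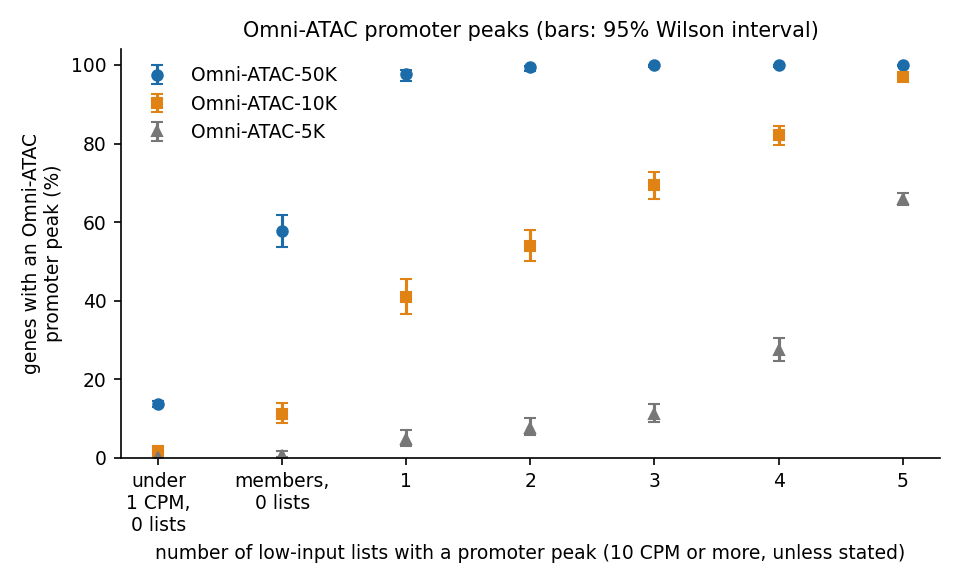
Share of genes (%, vertical axis) with a promoter peak in each Omni-ATAC list, for genes grouped by the number of low-input lists with a promoter peak (horizontal axis), with 95% Wilson intervals as bars; members are the 590 nuclear peakless genes. In the list from 50000 cells the share is 13.7% for genes under 1 CPM, 57.8% for members and 97.7% or more for genes with a peak in at least 1 low-input list.

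The plot of Omni-ATAC shares shows members between silent genes and genes with 1 low-input list at 50000 cells, and at 10000 cells a rise from 40.9% at 1 list to 96.8% at 5 lists. The recovered peaks were narrow. The widest promoter peak per gene had a median of 146 bp (quartiles 41 and 313 bp) for peakless genes, against 383 bp for genes with a peak in 1 to 4 low-input lists, 550.0 bp for those with one in all 5 and 90.0 bp for genes under 1 CPM. It was 9 bp, the shortest width, in 37 of 341 peakless genes (10.9%, 7.98 to 14.6%) and in 0 of 3205 genes with a peak in all 5 lists. The peak covered the TSS itself in 153 of 341 (44.9%, 39.7 to 50.2%), against 91.6% of genes with a peak in all 5 lists, 80.3% of those with 1 to 4, and 22.5% of genes under 1 CPM.

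Ctnnb1 (chromosome 9, 120933400 to 120960507) was among the recovered genes. It had 178 and 179 CPM in experiment 1 and 172, 192 and 191 CPM in experiment 2, so the groups overlapped and the libraries lay close together. The nearest low-input peak was 13897 bp upstream, and the Omni-ATAC list from 50000 cells had 3 promoter peaks, the widest of 297 bp, and at least 1 of them covered the start. Bex1 (435 CPM, 40 bp), an X-linked gene of the brain-expressed family, and Skp1 (271 CPM, 205 bp), a subunit of SCF ubiquitin ligases, were recovered likewise with no low-input peak within 10000 bp. So were Gars, the glycyl-tRNA synthetase (256 CPM, 99.0 bp), Umps, the last enzymes of pyrimidine synthesis (182 CPM, 496 bp), and Psmc1, an ATPase of the proteasome cap (167 CPM, 189 bp). The widest recovered peaks were those of Rhoc, a small GTPase, at 964 bp, Ly6g6e at 943 bp and Bcap31 at 871 bp.

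Some genes had neither. With peaks inside the gene counted as well, 519 of 602 (86.2%) had an Omni-ATAC peak from 50000 cells in the promoter or gene, and 83 did not. Outside the mitochondrial genome, 73 genes had no low-input peak in the gene or at another start and no promoter peak in the Omni-ATAC list. Of these 73, 17 did have an Omni-ATAC peak from 50000 cells elsewhere in the gene. Of the same 73, 13 lay inside another gene and 45 were protein-coding genes outside the named classes. Rpl18 (chromosome 7, 45718071 to 45720835) was the most abundant, with 2511 and 2598 CPM in experiment 1 and 2487, 2400.2 and 2486 CPM in experiment 2. Both experiment 1 libraries lay slightly above all 3 of experiment 2, and the gene was not called in the comparison of experiments given below. Its promoter, printed above, is rich in CpG, and its nearest low-input peak lay 2587 bp upstream.

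Cox7b (chromosome X, 106015700 to 106022450) was next, with 2143 and 2635 CPM in experiment 1 and 2270.2, 2435 and 2115 CPM in experiment 2, with overlapping groups. The 73 genes also held Mir692-2, Mrpl52, a mitochondrial ribosomal protein, at 347 ± 52.9 CPM, Crip1 at 238 CPM, and Ooep, an egg and embryo protein, at 172 ± 46.7 CPM. Rhox5 (chromosome X, 37754608 to 37808878) stood 425386 bp from its nearest low-input peak and 52814 bp from its nearest Omni-ATAC peak.

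The mRNA of peakless genes also differed between experiments for some genes. The definition used the mean over these same libraries, so a gene that was high in 1 experiment only could pass through that experiment, and counts over the peakless genes are given as descriptions. The test was edgeR's quasi-likelihood test on the 4 libraries from 10000 and 20000 cells, with p-values adjusted by Benjamini-Hochberg over all 12523 genes tested. At an adjusted p of 0.05, 146 of the 602 (24.3%, 21.0 to 27.8%) were called, against 12.5% of all genes tested. Of these, 60 were higher in experiment 2 (background 5.75%) and 86 lower (background 6.76%), and 20 and 35 of them changed at least 2-fold. Among all expressed genes, which share the level of at least 10 CPM, 1088 of 6485 (16.8%, 15.9 to 17.7%) were called. The share was 17.0% for genes with a promoter peak in 1 to 4 lists and 15.2% for those with one in all 5. Of the 125 peakless genes under 10 CPM in some library, 53 were called (42.4%, 34.1 to 51.2%). Among all expressed genes under 10 CPM in some library, these 125 included, it was 169 of 800 (21.1%, 18.4 to 24.1%). It was 68 of 328 (20.7%) with a promoter peak in 1 to 4 lists and 48 of 347 (13.8%) with one in all 5. Of the 477 with at least 10 CPM in every library, 93 were called (19.5%, 16.2 to 23.3%). Among all expressed genes held to the same minimum, these 477 included, it was 919 of 5685 (16.2%, 15.2 to 17.1%), with overlapping intervals. It was 388 of 2349 (16.5%) with a promoter peak in 1 to 4 lists and 438 of 2859 (15.3%) with one in all 5. The median log2 fold change was -0.01 for peakless genes and 0.00 for all genes tested.

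In 140 of the 146 called genes the libraries of the experiments lay apart and the experiment 2 library from 5000 cells, which took no part in the test, lay on the side of experiment 2. Over all genes tested this held for 1487 of 1567 called genes. Without the experiment 2 mRNA library from 10000 cells, 96 were called.

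**Figure D5:**
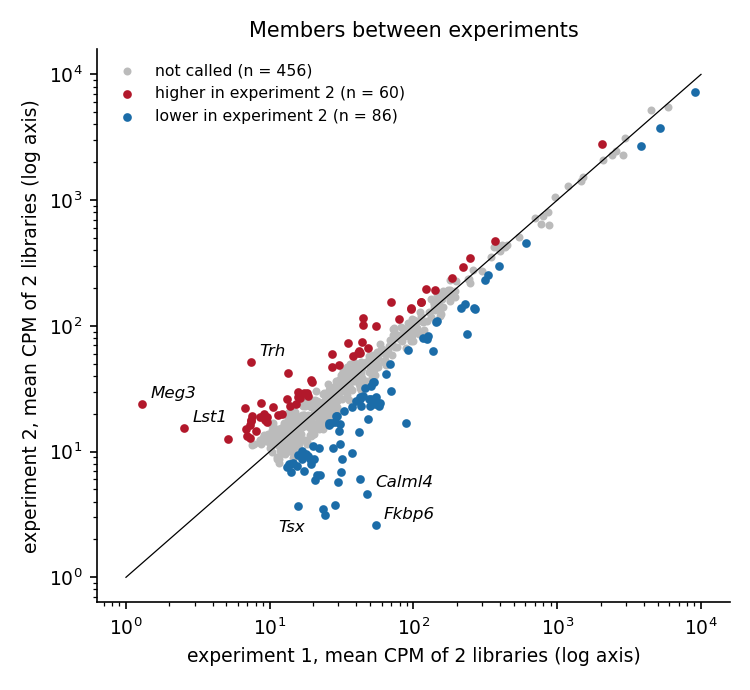
Mean CPM of the 602 peakless genes in experiment 1 (horizontal axis, log scale) and experiment 2 (vertical axis, log scale), each over the libraries from 10000 and 20000 cells, with the line of equality. Called genes are red where higher (60) and blue where lower (86) in experiment 2; Meg3, Trh and Lst1 stand above the line and Fkbp6, Calml4 and Tsx below it.

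In the scatter of the experiments, the 6 labelled genes reached a mean of 10 CPM only through the experiment in which they were high. They were also picked from the called genes, so their values and fold changes are given as descriptions, without a test or standard error. Fkbp6, a co-chaperone known from meiosis, had 51.2 and 57.8 CPM in experiment 1 and 1.61, 3.48 and 1.71 CPM in experiment 2. All experiment 2 libraries were far lower, with an edgeR log2 fold change of -4.43. Its promoter had a 9 bp peak in the Omni-ATAC list from 50000 cells. Calml4, a calmodulin-like protein, had 57.5 and 38.2 CPM in experiment 1 and 5.79, 4.84 and 4.41 CPM in experiment 2. Its log2 fold change was -3.37, and it had no promoter peak in any list. Tsx had 24.4 and 23.8 CPM in experiment 1 and 2.68, 2.39 and 3.82 CPM in experiment 2 (log2 fold change -2.94). Lack of overlap between the experiments was a condition for naming these 3.

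In the other direction, Meg3 is a maternally expressed imprinted non-coding RNA. It had 1.31 and 1.27 CPM in experiment 1 and 18.5, 22.1 and 25.8 CPM in experiment 2 (log2 fold change 4.21). Trh, the precursor of thyrotropin-releasing hormone, had 8.45 and 6.29 CPM in experiment 1 and 50.8, 46.1 and 56.8 CPM in experiment 2. The log2 fold change of Trh was 2.81. Trh had a 188 bp promoter peak in the Omni-ATAC list from 50000 cells, and Meg3 had none in any list. Lst1, a transcript of leukocytes, had 3.21 and 1.87 CPM in experiment 1 and 15.4, 15.3 and 15.6 CPM in experiment 2. The log2 fold change of Lst1 was 2.61. It had no promoter peak in any list and a peak elsewhere in the gene in 4 low-input lists. Lack of overlap was a condition for naming these 3 genes as well.

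Rhox5 and Rpl39l were above 10 CPM in every library. Rhox5 had 44.9 and 44.2 CPM in experiment 1 and 115, 113 and 118 CPM in experiment 2. Its edgeR estimate was 1.38 ± 0.13 (SE) on the log2 scale (edgeR adjusted p = 1.06e-07). Rpl39l, a relative of ribosomal protein L39, had 241 and 233 CPM in experiment 1 and 88.9, 94.0 and 79.6 CPM in experiment 2 (-1.45 ± 0.13, edgeR adjusted p = 2.65e-08). Rpl39l was the only called gene of the 8 ribosomal protein genes (12.5%), and the share over all genes tested was also 12.5%. Other genes at least 4-fold lower in experiment 2, chosen after their values were seen, were Ceacam20, the transporters Slc4a5 and Slc11a1, Timm8a2, Fmr1nb, Thy1 and Gm21761. All but Slc11a1 were under 10 CPM in some library, and they too are given without a test. The log2 fold changes ran from -2.91 for Ceacam20 to -2.13 for Gm21761. In Gm21761 the library from 5000 cells had 21.2 CPM, on the side of experiment 1.

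Cox4i1, Cox6c, Fth1 and ND1 were called among the abundant genes, with changes of less than 2-fold (log2 0.45, -0.50, -0.48 and -0.31). Cox4i1 lies on chromosome 8, where the 692 genes tested had a median log2 fold change of 0.46. Fth1 and ND1 lost their calls when 1 library was left out, with edgeR adjusted p up to 0.108 and 0.329, and Cox4i1 and Cox6c kept theirs, at up to 0.0385 and 0.0341. The 3 pluripotency genes Esrrb, Fgf4 and Dppa4 were not called, with log2 fold changes of 0.10 ± 0.13, -0.11 ± 0.13 and 0.08 ± 0.12 (SE). On chromosome 8, 9 of 29 peakless genes were called (31.0%), 8 of them higher in experiment 2, near the 219 of 692 (31.6%, 210 higher) among all genes tested there. On chromosome X 12 of 33 were called (36.4%, 22.2 to 53.4%), 8 of them higher, against 58 of 414 genes tested there, 32 of them higher. On chromosome 14 it was 11 of 31 (35.5%, 21.1 to 53.1%), 7 of them higher, against 57 of 411, 46 of them higher.

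Several marker lists of other cell types differed between the experiments. The summed level of 9 germline genes was 103 to 106 CPM in experiment 1 and 26.4 to 33.9 CPM in experiment 2. Of 8 tested, edgeR called 6, all lower, and DESeq2 called 4. Tuba3a alone had 47.9 and 57.5 CPM in experiment 1 and 9.01, 15.2 and 14.5 CPM in experiment 2. The summed level of 12 two-cell-like genes was 16.6 to 23.7 CPM and 0.441 to 4.53 CPM, with Usp17lc and Usp17ld at 0 in every library. For 11 primitive endoderm genes the sum was 203 to 207 CPM and 116 to 152 CPM, with 4 of 9 called lower. The sum of 10 fibroblast genes was 35.8 to 37.3 CPM and 10.0 to 11.8 CPM, most of it from Thy1, itself a peakless gene, while Col3a1 and Lum were at 0 in every library. The pluripotency list summed to 4544 to 4663 CPM and 4675 to 4827 CPM, with 5 of its 20 genes called higher and 1 lower. The neural list of 4 genes went the other way, from 4.59 to 5.62 CPM in experiment 1 to 11.1 to 14.4 CPM in experiment 2, and Pax6 was called higher among the 3 tested. Most of the rise was in Pax6, at 0.146 and 0 CPM in experiment 1 and 5.55, 6.96 and 3.52 CPM in experiment 2, and Nes and Sox1 were not called. The 6 trophoblast and epithelial genes summed to 31.7 to 31.9 CPM and 25.7 to 27.5 CPM, with 0 of 4 tested called by edgeR or DESeq2 and 0 at an unadjusted p under 0.05. The 5 mesendoderm genes had overlapping sums of 1.02 to 2.14 CPM and 1.25 to 3.87 CPM, and the 1 gene tested was called by neither tool, with an unadjusted p under 0.05. The part of these cells in the changes was not tested. In bulk libraries, fewer cells of a type and less RNA per cell cannot be told apart. Neither experiment was itself repeated, so the p-values measure the spread between libraries of the same experiment.

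Between cell numbers, 0 of the 602 were called by edgeR at 20000 against 10000 cells (background 0%), and 4 had an unadjusted p under 0.05. DESeq2 also called 0. The biological coefficient of variation in this fit, which leaves the difference between experiments in the spread, was 32.0%, against 17.1% in the comparison of experiments, and a count of 0 does not show that the levels were alike. With the experiment as a replicate block edgeR called 1, the mitochondrial ATP8, an ATP synthase subunit. It had 55.2 and 16.2 CPM with 10000 and 20000 cells in experiment 1 and 33.7 and 18.2 CPM in experiment 2, and 16.6 CPM with 5000 cells (log2 fold change -1.34, edgeR adjusted p = 1.63e-06).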

How the data were processed

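The authors deposited whole-number counts for each gene in 5 mRNA libraries, and the file headers give coordinates on mm10. Peak positions were deposited by the authors as intervals without scores, 1 list per library (8 lists). The submitters' processing notes name mm10, cutadapt, Bowtie2 2.1.0, SAMtools 1.3.1, Picard, bedtools 2.24.0, MACS2 2.1.1, STAR 2.5, featureCounts and Subread 1.5.0-p1. The peak threshold, the use of strand and the handling of reads with several matches are not given in the sources used here.

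CPM were computed from the library totals. A promoter peak overlapped the window by at least 1 bp. Gene IDs were matched to RefSeq (GRCm38.p6) for 24467 of 24470 genes, and 58.4% of start sites were equal. Promoter sequences came from RefSeq on GRCm38.p6 and covered 452 peakless genes, 422 of them within 1000 bp of the TSS. Differential expression was tested in R 4.3.3 by the quasi-likelihood functions of edgeR 4.0.16, after filterByExpr and TMM scaling, at a Benjamini-Hochberg adjusted p of 0.05. DESeq2 1.42.0 was an alternative. The fit was tested on simulated data. The mRNA libraries were checked for duplicates, and every pair differed beyond counting noise (chi-square per gene at least 10.7). Alternatives covered the window, CPM minimum, peak width and overlap, start sites, single lists and libraries, scaling and count filter. The experiment number is given in the sample labels and pairs the libraries. Same-numbered deviations correlated across 11575 genes with r = 0.517. Intervals are 95% Wilson intervals and cover counting error only. Tables were made with pandas 2.3.3 and numpy 2.4.6 in Python 3.11.15, tests with scipy 1.17.1 and figures with matplotlib 3.10.9.

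The peakless genes, the gene lists and the comparisons were chosen with earlier results of these data known. Named genes are the 10 of highest mean CPM, the 3 highest of each class, the 5 highest with a promoter peak in the 50000 cell Omni-ATAC list and the 5 highest with none in any list, the 3 largest rises and falls between experiments, those at the limits of the definition and the pluripotency genes among them. Any further gene was picked with its values in view.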

Additional observations from a re-analysis of the deposited data

How the results depend on the processing

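The count of peakless genes moved from 602 to 371 with a minimum of 20 CPM, to 1470 with peaks of at least 50 bp and to 2209 with the deposited unified list. Leaving out a low-input library, both its peak list and its mRNA column, gave 608 to 983, the highest without the experiment 2 library from 20000 cells. The share with an Omni-ATAC promoter peak from 50000 cells moved from 56.6% to 62.1% with a window of 2500 bp, to 72.0% with peaks of at least 50 bp and to 41.9% with start sites from the RefSeq gene table, and it was 57.2 to 72.8% with a library left out. The share with a low-input peak elsewhere in the gene moved from 57.8% to 63.0% at 500 bp, 48.1% at 2500 bp, 35.4% with peaks of at least 50 bp and 70.4% with RefSeq starts, and it was 45.0 to 57.9% with a library left out. Calls between experiments were 146, 55 with a log2 fold change of at least 1, and 112 to 168 with DESeq2, RLE size factors, no filter on low counts or cell number as a covariate. With a library left out they were 96 to 139. Counting only peakless genes with at least 10 CPM in every library, an alternative chosen after seeing the data, gave 93. Calls between cell numbers were 0, and 1 with no filter on low counts and 1 with the replicate block. The block, which uses the pairing by experiment, added the call of ATP8 and no other peakless gene. The causes were not tested. The read depth of the peak lists is unknown, which limits every share above.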
